A study of Arabidopsis thaliana with 6 samples.

Results

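The genes described here are 10 Arabidopsis thaliana loci of gibberellin metabolism, chosen by locus identifier with earlier results of these data known. Of these, 4 act in synthesis (GA3, AT5G25900; GA20OX1, AT4G25420; GA20OX2, AT5G51810; GA3OX1, AT1G15550) and 6 in inactivation (GA2OX1, AT1G78440; GA2OX2, AT1G30040; GA2OX4, AT1G47990; GA2OX6, AT1G02400; GA2OX7, AT1G50960; GA2OX8, AT4G21200). A listed region was assigned to a gene when its centre lay inside the gene, up to 3000 bp upstream of it or up to 1000 bp downstream, and only the closest gene on each side was considered. This gave 24 regions of the 24032 in the deposited table, for 10 of the 22909 genes with an assigned region. The assay was chromatin immunoprecipitation with sequencing (ChIP-seq) for SOC1, a flowering activator of the MADS-domain family. The tagged group, gSOC1-GFP, carried SOC1p:gSOC1-GFP, the genomic SOC1 gene fused to GFP under its own promoter (line 7). The background group, untagged gSOC1, carried SOC1p:gSOC1 without GFP (line 9). Plants of both groups carried the soc1-2 mutation, and each group was a single transgenic line with 3 libraries. Shoot apices were taken from plants grown for 15 short days and 3 long days, at zeitgeber time 4 h, and an anti-GFP antibody was used. The tissue label could not be checked against marker genes, since no expression was measured. Apices hold many cell types, so occupancy in few cells and weak occupancy in many cells cannot be told apart.

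Gibberellins are plant hormones that promote stem growth, germination and flowering, and in Arabidopsis they are needed for flowering in short days. GA3 encodes ent-kaurene oxidase, an early step of synthesis. The GA20OX and GA3OX oxidases carry out the last steps, which yield the active hormone, and the GA2OX oxidases inactivate active gibberellins or their precursors. The question for these genes was whether chromatin near them held more reads in the tagged than in the untagged precipitates.

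Reads in listed regions were few and unequal between libraries, and their total depth is unknown. Listed regions held 663108, 183668 and 262776 reads of gSOC1-GFP replicates 1, 2 and 3, and 396326, 41073 and 61963 reads of the untagged replicates. In untagged replicate 2 a median listed region held 1 read, and 32.2% of all regions held 0. The SOC1 region 89 bp upstream of its gene served as a positive control, with log2 enrichments of 3.59, 5.50 and 4.01 in the 3 pairs of same-numbered libraries (mean 4.37 ± 1.00, SD, n = 3). Log2 enrichment is the log2 ratio of scaled tagged to scaled untagged counts in such a pair, after a prior count of 1. Both transgenes carried the SOC1 promoter, and the part of transgene copies in the reads at this control was not tested. Regions whose false discovery rate (FDR) in the authors' deposited table was below 0.05 in all 3 replicates are referred to as called regions; there were 270.

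No region of the 10 gibberellin genes was called, against 1.12% of all listed regions. Of the 24 regions, 8 passed the FDR of the authors' deposited table in replicate 1, where 10.1% of all regions did. Only 2 passed it in replicate 2 (2.86% of all regions) and 0 in replicate 3 (3.16%). Counted by gene, 7 of 10 had a region past the FDR in at least 1 replicate, against 18.9% of genes. GA3 and GA2OX1 had a region past it in 2 replicates, against 4.08% of genes, and none had a called region, against 1.75%. The 10 genes were chosen with earlier results of these data known, so these shares are not an independent comparison with all genes. The quasi-likelihood test of edgeR over all regions gave 0 calls among the 24, without and with the replicate number as a block, and all 24 adjusted p were 1.0 in both fits. At an unadjusted p under 0.05 it gave 1 region without the block (3.17% of all regions) and 0 with it (2.73%). Over the whole table edgeR called 0 regions without the block and 91 (0.379%), all higher in gSOC1-GFP, with it. DESeq2 called 94 regions (1.61% of those with an adjusted p) and 0 of the 6 gibberellin regions that received one, with 0 of the 24 at an unadjusted p under 0.05 (1.64% of all regions). The edgeR fit without the block did not call even the SOC1 control (adjusted p = 1.0), so it says little about single regions. The edgeR fit with the block called that control (adjusted p = 0.00937). It did not call the other SOC1 region, 1975 bp upstream (adjusted p = 0.246), which passed the authors' FDR in all 3 replicates. In simulated data the fit with the block recovered only 32% of regions changed 4-fold, the smallest fold simulated. Its 0 calls among the 24 therefore say little about changes of 4-fold or less. Changes were simulated only in regions with more reads than some of the 24 held, such as that 566 bp upstream of GA2OX7. For such thin regions the recovery at larger folds is unknown.

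**Figure D1:**
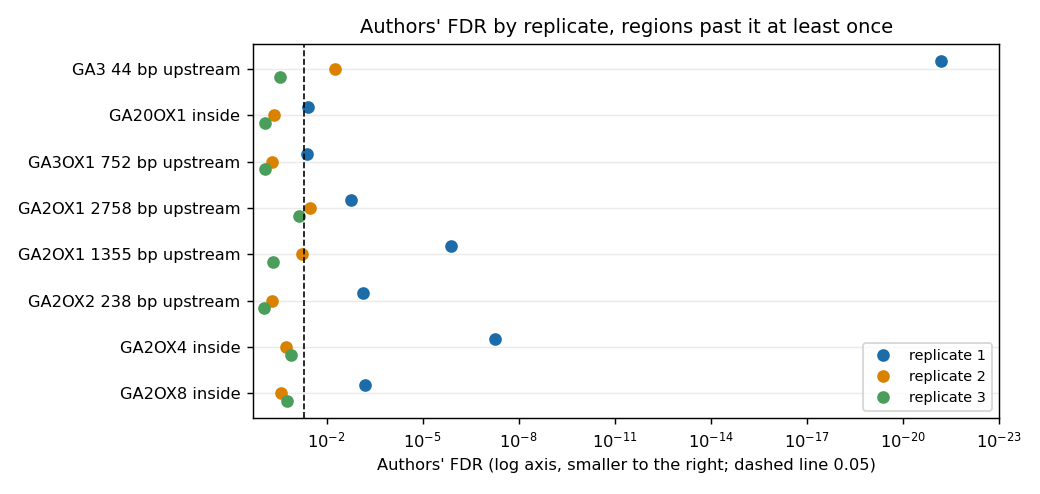
The authors' FDR (log axis, smaller values to the right) in replicates 1, 2 and 3 for the 8 gibberellin gene regions that passed 0.05 (dashed line) at least once; points are offset vertically by replicate. All 8 lie past the line in replicate 1, 2 in replicate 2 and 0 in replicate 3.

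The median of the mean log2 enrichment was 0.53 over the 24 regions, 0.31 over all listed regions and 2.43 over the called ones. By pair, the medians of the 24 were 0.12, 0.87 and -0.08, beside -0.05, 0.46 and 0.39 over all regions. At 5 of the 24 regions every pair had a log2 enrichment above 0, against 16.5% over the whole table. Tagged and untagged scaled counts did not overlap, with every tagged library higher, at 4 of the 24, against 8.48%. Those 4 lay at GA2OX1, GA2OX4, GA2OX7 and GA2OX8, all of them inactivation genes. At the region 2486 bp upstream of GA20OX1, a synthesis gene, the groups also did not overlap, but every tagged library was lower. There the scaled counts were 22.08, 10.49 and 24.64 in the tagged libraries and 28.82, 35.85 and 24.71 in the untagged ones. Of the 24 regions, 10 were also assigned to a neighbouring gene.

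**Figure D2:**
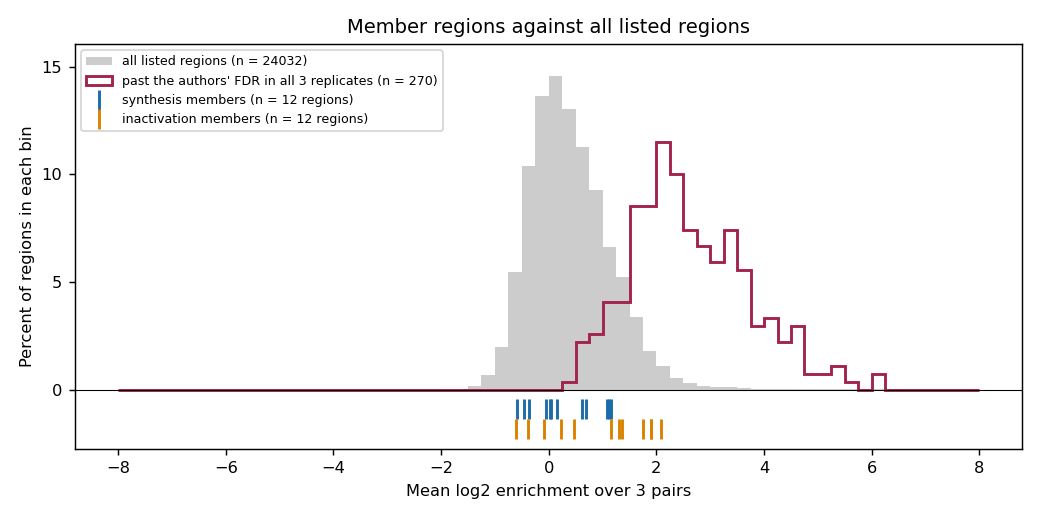
Percent of regions (vertical axis) by mean log2 enrichment over 3 pairs (horizontal axis) for all 24032 listed regions (grey) and the 270 called regions (red line), with ticks below for the 12 regions of synthesis genes (blue) and the 12 of inactivation genes (orange). The ticks run from -0.60 to 2.09, below the median of 2.43 of the called regions. The lower quartile of the called regions was 1.82, so the highest ticks lie within their range.

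GA3, which encodes ent-kaurene oxidase, had the best-ranked region of the 10 genes. It lay 44 bp upstream of the gene on chromosome 5, from 9035798 to 9036150 (TAIR10), and was of rank 337 in the authors' deposited table. There the tagged replicates 1, 2 and 3 had 154, 45 and 29 reads, and the untagged ones 13, 6 and 8. Scaled to library size (CPM) these were 283.4, 236.1 and 102.1 against 53.5, 107.5 and 98.8. Replicates 1 and 2 of the tagged line stood above all untagged libraries, while replicate 3 lay between untagged replicates 3 and 2, so the groups overlapped. The fold over the untagged library was 5.29 in pair 1 (exact 95% counting interval 3.01 to 10.2), 2.20 in pair 2 (0.934 to 6.30) and 1.03 in pair 3 (0.461 to 2.62). These intervals cover counting error only. The mean log2 enrichment was 1.15 ± 1.14 (SD, n = 3), close to its own spread. With library totals, the sums over listed regions, in place of TMM the 3 pairs gave 2.69, 0.73 and -0.22, so the sign in pair 3 depended on the scaling. In the authors' deposited table the FDR was 6.58e-22, 0.0053 and 0.296. Of the 270 called regions, 261 were ranked above this region and the rest below it.

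The other 3 GA3 regions were shared or weak. Those 1330 bp and 2014 bp upstream had their centres inside the neighbour IAA28, a repressor of auxin response, and held 2 to 7 tagged reads a library. The region 372 bp downstream of GA3 lay 81 bp upstream of RLP52, a receptor-like protein gene, and its mean log2 enrichment was 0.03 ± 1.07 (SD, n = 3). None of these 3 passed the FDR in any replicate of the authors' deposited table.

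GA20OX1, a gibberellin 20-oxidase gene, had 1 region inside the transcript, at a centre for which the authors' columns name no exon, and 3 upstream. The inside region, on chromosome 4 from 12991780 to 12991926, had 13, 4 and 3 tagged reads against 1, 0 and 2 in the untagged line. It was higher in the tagged library in pairs 1 and 2 and lower in pair 3, with log2 enrichments of 1.75, 2.56 and -0.97. Its FDR in the authors' deposited table was 0.0386, 0.435 and 0.863, and its pair 1 fold had a counting interval of 0.873 to 246.9. The regions 76 bp, 1351 bp and 2486 bp upstream had mean log2 enrichments of -0.05 ± 0.35, -0.37 ± 1.00 and -0.59 ± 0.75 (SD, n = 3). In the region 76 bp upstream the tagged CPM were 29.4, 47.2 and 31.7 and the untagged CPM 37.1, 35.8 and 37.1, so that tagged replicates 1 and 3 lay below and replicate 2 above all untagged libraries.

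GA20OX2, a second 20-oxidase gene, had 1 region, 498 bp downstream, with 9, 6 and 3 tagged reads against 8, 0 and 1. Its log2 enrichments were -0.84, 3.06 and -0.16, and the high value came from the pair with an untagged count of 0; without it the mean was -0.50. GA3OX1, a gibberellin 3-oxidase gene for the final activating step, had 3 regions. The one 752 bp upstream, on chromosome 1 from 5346801 to 5347037, held 28, 6 and 12 tagged reads against 7, 1 and 7. Scaled, these were 51.5, 31.5 and 42.2 against 28.8, 17.9 and 86.5 CPM, and the groups overlapped because untagged replicate 3 was the highest of all. The FDR of this region in the authors' deposited table was 0.0423, 0.506 and 0.843. The region in the coding exon of GA3OX1 and that 575 bp downstream had mean log2 enrichments of 0.05 ± 1.35 and -0.46 ± 1.17 (SD, n = 3). The downstream region held 55 tagged and 53 untagged reads in replicate 1, a scaled fold of 0.464 (0.312 to 0.690), lower in the tagged library.

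GA2OX1, a gibberellin 2-oxidase gene, had 2 upstream regions and was the only one of the 10 genes with more than 1 region past the FDR in replicate 1. The farther region, 2758 bp upstream on chromosome 1 from 29515685 to 29515935, held 64, 16 and 27 tagged reads against 18, 0 and 3. Scaled to library size these were 117.8, 83.9 and 95.03 against 74.1, 0 and 37.1 CPM. Every tagged library was above every untagged library. The fold was 1.59 in pair 1 (counting interval 0.930 to 2.85) and 2.56 in pair 3 (0.789 to 13.2), and in pair 2, with 0 untagged reads, the interval began at 1.13. The log2 enrichments were 0.64, 4.36 and 1.26 (mean 2.09 ± 1.99, SD, n = 3), and without replicate 2 the mean was 0.95. The log2 fold change of edgeR with the replicate block was 1.29. The FDR in the authors' deposited table was 0.00177, 0.032 and 0.0751, so that this region would be called at an FDR of 0.1, the only one of the 24.

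The nearer GA2OX1 region, 1355 bp upstream from 29514230 to 29514584, held 69, 14 and 25 tagged reads against 11, 0 and 9. It was higher in the tagged line in pairs 1 and 2 (log2 enrichment 1.40 and 4.18) and lower in pair 3 (-0.32). Its FDR in the authors' deposited table was 1.3e-06, 0.0589 and 0.485. In replicate 1 the nearer region had the larger fold, 2.80 (1.47 to 5.88), while in replicate 3, where its fold was 0.791 (0.357 to 1.93), the farther one had it. The counting intervals of the 2 regions overlapped in both replicates, so which region was more enriched is not resolved.

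**Figure D3:**
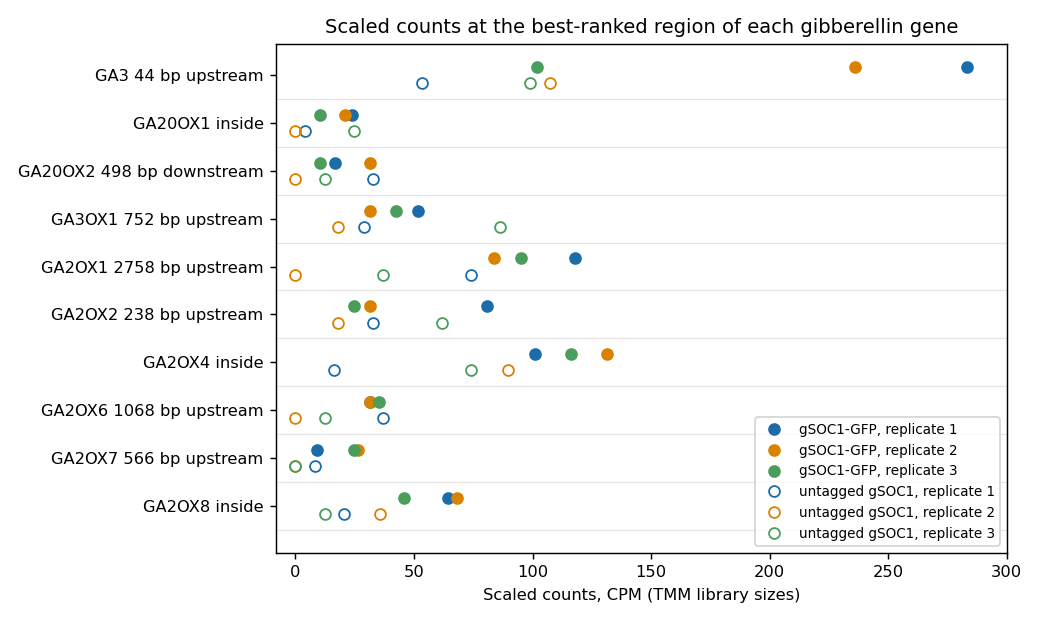
Scaled counts (CPM, horizontal axis) in each of the 6 libraries at the best-ranked region of each gibberellin gene; filled points are gSOC1-GFP, open points untagged gSOC1, and colours mark replicates. Tagged and untagged points are separate at GA2OX1, GA2OX4, GA2OX7 and GA2OX8 and overlap at the other 6 genes.

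GA2OX4 and GA2OX8 had their best regions inside the transcript, again at centres where no exon is named. The GA2OX4 region, on chromosome 1 from 17699701 to 17700035, held 55, 25 and 33 tagged reads against 4, 5 and 6. Scaled, the tagged libraries lay at 101.2, 131.2 and 116.2 CPM and the untagged ones at 16.5, 89.6 and 74.1. The groups did not overlap, and untagged replicate 1 was the lowest by far. The fold was 6.15 (2.27 to 23.4), 1.46 (0.550 to 4.90) and 1.57 (0.648 to 4.58) in pairs 1, 2 and 3, and the mean log2 enrichment 1.16 ± 1.02 (SD, n = 3). Its rank in the authors' deposited table was 557, with an FDR of 5.61e-08, 0.185 and 0.126.

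GA2OX8 encodes an oxidase that acts on gibberellin precursors, as does GA2OX7. Its best region, on chromosome 4 from 11305393 to 11305637, held 35, 13 and 13 tagged reads against 5, 2 and 1, or 64.4, 68.2 and 45.8 against 20.6, 35.8 and 12.4 CPM. The groups did not overlap, and the log2 enrichments of 1.47, 0.85 and 1.59 gave a mean of 1.30 ± 0.39 (SD, n = 3), the smallest spread among the best-ranked regions. With a prior count of 10 the mean was 0.65. It was the region below an unadjusted 0.05 in edgeR without the block (adjusted p = 1.0), and it was above that level with the block. It passed the FDR of the authors' deposited table in replicate 1 (0.000625) but not in replicates 2 and 3 (0.261 and 0.171). The region also lay 1430 bp upstream of RP1 (AT4G21210). The other 4 GA2OX8 regions had mean log2 enrichments from -0.60 to 1.89. The highest of these, 484 bp downstream and inside RP1, rested on 5, 6 and 8 tagged reads against 3, 0 and 0.

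GA2OX2, GA2OX6 and GA2OX7 had weaker or thinner regions. The region 238 bp upstream of GA2OX2, on chromosome 1 from 10537308 to 10537511, held 44, 6 and 7 tagged reads against 8, 1 and 5. Its pair 1 fold was 2.46 (1.15 to 6.05) and its pair 3 fold 0.399 (0.109 to 1.59), and the FDR of the authors' deposited table was 0.000752, 0.506 and 0.903. The region 1068 bp upstream of GA2OX6 held 17, 6 and 10 tagged reads against 9, 0 and 1, with log2 enrichments of -0.22, 3.06 and 1.25. The region 2849 bp upstream of GA2OX6, which lay 32 bp upstream of AT1G02391, held 132 tagged and 139 untagged reads in replicate 1, a fold of 0.424 (0.332 to 0.542), lower in the tagged library. In pair 2 the same region had a log2 enrichment of 0.95. The region 566 bp upstream of GA2OX7 held 5, 5 and 7 tagged reads against 2, 0 and 0. Its groups did not overlap, yet at this depth each pair's counting interval included a fold of 1, with lower bounds of 0.183, 0.268 and 0.411.

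**Figure D4:**
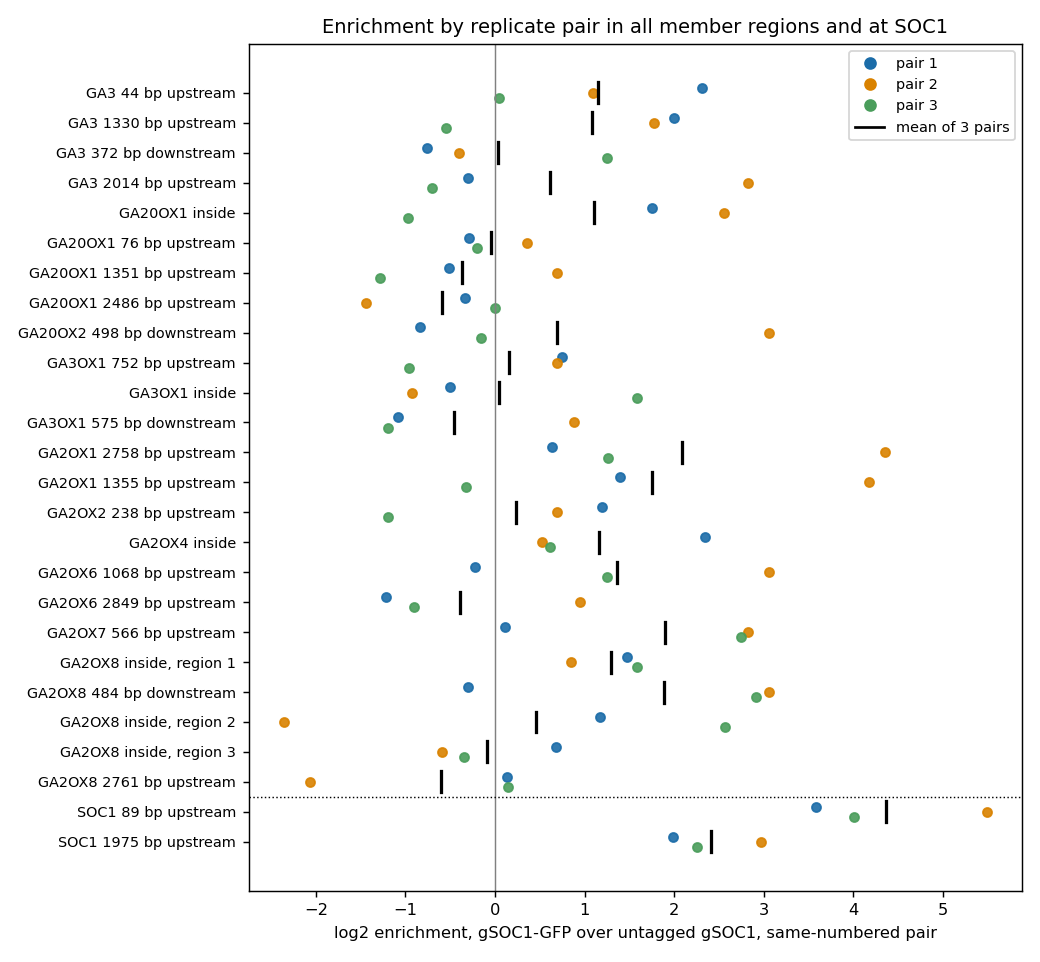
Log2 enrichment of gSOC1-GFP over untagged gSOC1 (horizontal axis) in each same-numbered pair (coloured points, offset vertically) and the mean of 3 pairs (black bar) for the 24 gibberellin gene regions and, below the dotted line, the 2 SOC1 regions. The SOC1 points all lie at 1.99 or above, whereas the pairs of most gibberellin regions fall on both sides of 0.

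Ordered by the mean log2 enrichment of their best-ranked region, the genes ran GA2OX1 (2.09), GA2OX7 (1.90), GA2OX6 (1.36), GA2OX8 (1.30), GA2OX4 (1.16), GA3 (1.15), GA20OX1 (1.11), GA20OX2 (0.69), GA2OX2 (0.23) and GA3OX1 (0.16). The SD over pairs ranged from 0.39 to 2.08. Of the 9 neighbouring pairs in this order, 0 differed by more than the smaller of their SDs, so the order is not resolved between neighbours. It also depended on the prior count. With a prior count of 10 it began GA2OX1 (0.94), GA3 (0.89), GA2OX4 (0.70), GA2OX8 (0.65), GA2OX7 (0.46) and GA2OX6 (0.39), and the other 4 lay between 0.03 and 0.25. The 12 regions of inactivation genes had a median mean log2 enrichment of 1.23 and the 12 of synthesis genes 0.11, a description for which no test was made. Their order was the same with library totals (1.15 and 0.04) and with a prior count of 10 (0.43 and 0.02). By pair the medians were 0.66, 0.90 and 0.93 for inactivation and -0.32, 0.79 and -0.38 for synthesis. The medians give thin regions the same weight as deep ones. When the reads of each class were summed, the log2 ratio of scaled sums was -0.02, 0.92 and 0.26 for inactivation and 0.25, 0.73 and -0.33 for synthesis. Single regions moved these sums. Without the GA2OX6 region 2849 bp upstream, which held the most untagged reads, the inactivation values were 1.10, 0.91 and 0.54, and without the GA3 region 44 bp upstream the synthesis values were -0.49, 0.48 and -0.45. Both omissions were chosen after the values were seen. Untagged counts of 0 occurred in 5 of the inactivation regions in replicate 2 and 3 in replicate 3, and in 4 and 0 of the synthesis regions. At gibberellin genes outside the 10, inactivation did not stand above synthesis throughout. There the 9 regions of inactivation genes had a median mean log2 enrichment of 0.44. The 8 of late synthesis genes had 0.75 and the 6 of early synthesis genes 0.06.

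The 8 regions past the FDR in replicate 1 were followed in the other replicates, which that choice did not use. In pair 2 all 8 had a log2 enrichment above 0, against 70.5% of the 2422 listed regions past the FDR in replicate 1. In pair 3 this held for 4 of 8, against 66.3%. Of all 24 gibberellin regions, 18 were above 0 in pair 2 and 11 in pair 3. The 8 regions held only 0 to 6 untagged reads in replicate 2, and where the count is 0 any tagged read gives a value above 0. Their median log2 enrichment was 0.98 in pair 2 and -0.14 in pair 3, beside 0.77 and 0.47 for the 2422 regions. The FDR of the authors' deposited table was passed in replicate 2 by 2 of the 8 (19.3% of the 2422) and in replicate 3 by 0 (16.8%). Replicate 1, which held the most reads in listed regions, had 8 of the 10 passes of these genes, beside 62.6% of the 3869 passes over all regions, and the part of its read number in this was not tested.

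Just inside the assignment limits lay the GA2OX6 region at 2849 bp upstream described above. Just outside lay a GA3OX1 region 3556 bp upstream, with log2 enrichments of 0.05, 0.03 and -1.03, and on the other side a GA2OX2 region 1170 bp downstream, with 0.94, -1.22 and -0.20. A GA2OX4 region 1901 bp downstream was outside too. It held 39, 20 and 20 tagged reads against 4, 5 and 7, and, like the region inside this gene, was enriched mainly in pair 1 (log2 enrichment 1.87, 0.22 and -0.28).

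The regions whose 3 log2 enrichments were closest to those of GA3, by Euclidean distance over the 3 pairs, were sought among the other 2838 regions that had an assigned gene and passed the FDR in at least 1 replicate. They were a region between AT5G28910 and SADHU4-1 (2.40, 1.15 and 0.16), a region between AT5G45630 and AT5G45640 (2.29, 1.21 and 0.28) and a region 126 bp upstream of WIT1 and 99 bp downstream of DXPS3 (2.51, 0.92 and 0.14). Their distances were 0.154, 0.257 and 0.286 on the log2 scale, and 3 pairs are too few to set such patterns apart. The first held only 10, 1 and 8 tagged reads against 0, 0 and 2, so its values in pairs 1 and 2 depended on the prior count. The last was of rank 477 in the authors' deposited table and also passed the FDR in replicates 1 and 2 but not 3.

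Of 32 other gibberellin genes, 30 had an assigned region, with 65 regions in all. None had a called region, against 1.75% of all genes. Of the 32, 5 had a region past the FDR of the authors' deposited table in at least 1 replicate (18.9% of all genes) and 2 in at least 2 (4.08%). With the block edgeR called 0 of the 65 regions (0.379% of all regions), with 0 at an unadjusted p under 0.05 (2.73%). Their median mean log2 enrichment was 0.30, beside 0.31 over all regions. In early synthesis, GA1, which encodes the enzyme that commits precursors to the pathway, had a region inside the transcript with 29, 20 and 8 tagged reads against 7, 0 and 3. Its log2 enrichments were 0.80, 4.67 and -0.35. Among response genes, GNL (CGA1), a GATA factor acting downstream of gibberellin signalling, had a region 2997 bp upstream, shared with BGAL12, with 38, 18 and 7 tagged reads against 4, 1 and 4. Its log2 enrichments were 1.84, 2.15 and -0.89. At GA1 and GNL, as at GA3, replicates 1 and 2 passed the FDR of the authors' deposited table and replicate 3 did not (0.632 and 0.80). The other late synthesis genes (GA20OX3 to GA20OX5 and GA3OX2 to GA3OX4) and the other inactivation genes (GA2OX3, CYP714A1, CYP714A2, GAMT1 and GAMT2) had 0 regions past the FDR in any replicate. Of 11 perception and signalling genes, which include the GID1 receptors and the DELLA repressors, GID1C and RGA had a region past it in 1 replicate.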

How the data were processed

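Samples were grouped by title. The authors deposited 1 table of read counts per region, not normalized, per the column definitions deposited with it. The p-value columns are Benjamini-Hochberg FDR values of each replicate pair, the log2 column is the log2 rank product of the FDRs and the score is its rank, all per the deposited column definitions. Per the submitters' processing notes the build was TAIR10 (aligner, region caller and FDR test not given in the sources used here). Region starts are as deposited, whether counted from 0 or 1 being unstated; ends follow from start and length, and distances run from a region's centre.

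Counts were scaled with TMM library sizes to CPM (edgeR 4.0.16, R 4.3.3). The main test was edgeR's quasi-likelihood test on 24032 regions without a block; DESeq2 1.42.0 was an alternative. Same-numbered tagged and untagged libraries deviated together (correlation 0.498, 0.123 and 0.139; bound 0.1), and the deposited FDRs pair the same numbers, so the replicate numbers were taken to pair the samples. The last 2 values exceed the bound narrowly, and tagged replicate 3 with untagged replicate 2 gave 0.131. No label says that libraries came from separate cultures, so p-values measure only the spread between these libraries, which may be technical. Both edgeR fits were tested on simulated data with 50 changed regions at each fold. The changed regions were drawn from those with a mean of at least 5 reads a library, which not all gibberellin regions reached. The fit without the block recovered 0% of them at every fold. How far this reflects the way the data were simulated was not tested. The fit with the block recovered 32% at 4-fold, 84% at 8-fold, 98% at 16-fold and 100% at 32-fold, with 5 false calls. Changes smaller than 4-fold were not simulated. Named regions were each gene's best-ranked region and those past the FDR at least once; of the 32 other gibberellin genes, those past it in 2 replicates. Others were added after their values were seen. Members and lists were chosen with earlier results of these data known. Symbols came from the RefSeq gene table. No genome sequence was used here.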

Additional observations from a re-analysis of the deposited data

How the results depend on the processing

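The settings that combine the block with another choice, and the count over at least 2 replicates, were chosen after seeing the data. Among the 24 gibberellin regions edgeR and DESeq2 called 0 under each of the 19 fits; the lowest adjusted p was 0.322, at the GA3 region 44 bp upstream with the replicate block and the low-count filter, which kept 8 of the 24. The number of the 10 genes with a called region was 0, and stayed 0 at an FDR of 0.01, with an upstream limit of 1 kb and without replicate 1 or 2. It was 1 (GA2OX1) at an FDR of 0.1 and 2 (GA3 and GA2OX1) with at least 2 replicates; with each replicate left out it ranged from 0 to 2 (the same genes, without replicate 3). Called regions numbered 270, ranged from 295 to 468 with each replicate left out and were 630 with at least 2 replicates, which ask for fewer replicates by construction. Over all regions edgeR called 0, but 91 with the replicate block, 18 with library totals (sums over listed regions), 56 with the low-count filter, 211 with the block and library totals, 251 with the block and the filter, and 94 in DESeq2. Without single libraries or replicates it called 0 to 86, and with the block as well 71, 119 and 69 without replicates 1, 2 and 3; the cause was not tested. Library totals in place of TMM moved the median of all regions by 0.35, -0.33 and -0.24 in pairs 1, 2 and 3. Under totals GA3 left the 5 regions above 0 in all pairs and the GA2OX6 region 1068 bp upstream joined them. Over the 11 regions named in full, a prior count of 10 moved the mean log2 enrichment by over 1.5 times at 10 (all lower) and totals at 2. Without replicate 1, 2 or 3 it moved so far at 6, 7 and 5. The sign turned without replicate 1 at GA2OX2 (0.23 to -0.25) and GA3OX1 (0.16 to -0.14), and without replicate 2 at GA20OX2 (0.69 to -0.50) and GA3OX1 (to -0.11). The farther GA2OX1 region fell from 2.09 to 0.95 without replicate 2. Few untagged reads in replicates 2 and 3 limit what single pairs can show.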
